A study of Mus musculus with 55 samples.

Results

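The ventral dentate gyrus transcriptome of SUS mice raised in SH was compared with that of unstressed SH control mice. RNA-seq libraries were available for 10 SH SUS and 10 SH control mice, 1 library per mouse, which were taken by their labels for housing and social defeat phenotype, and these 20 mice are part of 54 mice in 6 groups. All were male C57BL/6J mice without a transgene, housed in standard cages from weaning and sampled as young adults. SUS mice had undergone chronic social defeat stress (CSDS), in which a larger CD1 aggressor attacks the mouse repeatedly. They were classified as susceptible because they avoided an aggressor in the social interaction test. Control mice had not been defeated. RNA of single mice was sequenced without pooling, so each library is 1 animal, and in such bulk samples fewer cells of a type and less RNA per cell cannot be told apart. The question of the comparison is which genes differ after defeat in the mice that became susceptible. The 7 SH RES mice, which were defeated and did not become avoidant, and the 9 SUS and 9 control mice raised in an enriched environment (EE) serve only for side-by-side values.

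The dentate gyrus is the entry station of the hippocampus, where granule neurons receive cortical input and where new neurons are born from progenitors in adult life. Its ventral portion is linked to anxiety and stress responses, and its cells carry receptors for glucocorticoid hormones. Blood left in the vessels of a dissected brain sample adds RNA of circulating cells, and young red cells still hold hemoglobin mRNA.

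Between 19651514 and 24061273 read pairs were assigned to genes in SUS mice and between 16760009 and 24067110 in control mice, and 18283 genes had enough counts to be tested. The share of read pairs that fell outside annotated genes was 21.8% to 28.2% in SUS and 19.9% to 27.0% in control mice. Markers of mature granule cells were abundant in every library, with a summed level of 1628 to 2134 counts per 1000000 (CPM) over 16 genes in SUS and 1652 to 2220 CPM in control mice. Genes of neighboring tissue were present as well. The summed level of 13 choroid plexus genes was 1619 CPM in control mouse 3 against 95.0 to 172 CPM in the other control mice, and it ranged from 100.1 to 699 CPM in SUS mice. The sum of 15 thalamic genes was 397 to 999 CPM in SUS and 372 to 895 CPM in control mice. The same 6 genes were called without control mouse 3, and also with scores of choroid plexus and thalamus genes as covariates. The part of neighboring tissue in other values was not tested beyond these refits.

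Of 18283 genes tested, 6 differed at an adjusted p below 0.05 in the quasi-likelihood test of edgeR, with p adjusted by the Benjamini-Hochberg method, which is 0.0328% of genes. All 6 were higher in SUS mice. They included the 4 adult hemoglobin genes Hbb-bs, Hbb-bt, Hba-a1 and Hba-a2 and the heme synthesis gene Alas2. No gene was lower at that threshold, although 262 genes (1.43%) were lower and 246 (1.35%) higher at an unadjusted p below 0.05, which is 2.78% of all genes together. DESeq2 called 7 genes (0.0383%), 5 of them among these 6, and 5 of the 6 were called when only genes above 1 CPM in 7 or more mice were tested. The limma test called only Hbb-bs (0.00547%). No gene of the genome separated all SUS from all control mice. The median log2 fold change over all genes tested was -0.0003, and 49.8% of genes had the higher mean in SUS mice.

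The erythroid genes are shown with the DNA just upstream of their starts, since they moved together. Each sequence is the 250 bases before the transcription start given by RefSeq in GRCm38.p6, written 5′ to 3′ on the strand of the gene. The annotation used for names and coordinates starts these genes further upstream. Thus 168 of these bases for Hbb-bs, 161 for Hba-a1 and 42 for Alas2 lie inside its gene spans. Capitals mark GATAA, a core bound by GATA factors, and CACCC, a core bound by the erythroid Krüppel-like factor, on either strand. The Hbb-bs window is chr7:103827929-103828178 on the minus strand, that of Hba-a1 is chr11:32283422-32283671 on the plus strand and that of Alas2 is chrX:150547167-150547416 on the plus strand.
Hbb-bs: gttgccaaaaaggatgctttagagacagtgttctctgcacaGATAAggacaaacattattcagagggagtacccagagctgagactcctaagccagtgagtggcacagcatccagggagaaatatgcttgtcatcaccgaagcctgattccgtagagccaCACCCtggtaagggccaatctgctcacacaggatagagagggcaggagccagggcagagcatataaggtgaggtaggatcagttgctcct
Hba-a1: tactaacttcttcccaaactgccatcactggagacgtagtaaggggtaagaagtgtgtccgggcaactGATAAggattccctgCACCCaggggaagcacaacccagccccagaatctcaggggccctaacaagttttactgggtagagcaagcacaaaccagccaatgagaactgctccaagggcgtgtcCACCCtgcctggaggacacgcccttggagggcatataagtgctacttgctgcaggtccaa
Alas2: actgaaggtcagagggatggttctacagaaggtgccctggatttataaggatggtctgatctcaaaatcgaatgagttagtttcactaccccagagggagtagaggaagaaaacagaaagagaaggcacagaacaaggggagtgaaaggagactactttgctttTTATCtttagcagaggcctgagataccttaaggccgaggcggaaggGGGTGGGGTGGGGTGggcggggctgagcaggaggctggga
Each of these windows held GATAA 1 time, and CACCC occurred 1 time in Hbb-bs, 2 times in Hba-a1 and 3 times in a row in Alas2, with no overlap of the motifs. Among 27025 mouse promoter windows of the same length, 23.02% held GATAA and 51.3% held CACCC. The Tent5c window held neither. A match is a description of the letters.

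Hbb-bs encodes the adult beta-globin chain of hemoglobin. Its level ran from 42.7 CPM through a median of 129 to 244 CPM in SUS mice, and from 30.6 through 49.4 to 61.5 CPM in control mice. In 9 of 10 SUS mice Hbb-bs was above every control mouse, and SUS mouse 7 lay within the controls. The log2 fold change was 1.47 (SE 0.24, adjusted p = 0.000899 in edgeR).

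Hbb-bt, the second adult beta-globin gene, had a median of 18.6 CPM in SUS mice (4.66 to 34.7) and 6.11 CPM in control mice (3.83 to 9.0). It was again above all controls in 9 SUS mice, with a log2 fold change of 1.70 (SE 0.28, adjusted p = 0.000899 in edgeR). The alpha-globin genes Hba-a1 and Hba-a2 had log2 fold changes of 1.44 (SE 0.27) and 1.40 (SE 0.26), both with an adjusted p of 0.00647 in edgeR. Hba-a1 ranged from 12.9 to 85.5 CPM in SUS and from 9.96 to 23.4 CPM in control mice, and Hba-a2 from 5.84 to 39.5 CPM and from 5.14 to 10.1 CPM. The 2 copies of each chain are nearly identical and read pairs with several matches were not counted, so the split of counts between copies is uncertain.

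Alas2 (chromosome X, 150547375 to 150570638 of GRCm38) encodes the erythroid form of the enzyme that starts heme synthesis. It stood at 2.46 CPM in the lowest, 7.41 in the median and 16.1 in the highest SUS mouse, against 1.95, 3.44 and 4.75 CPM in control mice. Of the SUS mice, 8 were above every control. The log2 fold change was 1.32 (SE 0.25, adjusted p = 0.00647 in edgeR). Alas2 overlaps Apex2 on the opposite strand, and when both strands were counted together its log2 fold change was 0.63 and the adjusted p was 0.328.

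**Figure D1:**
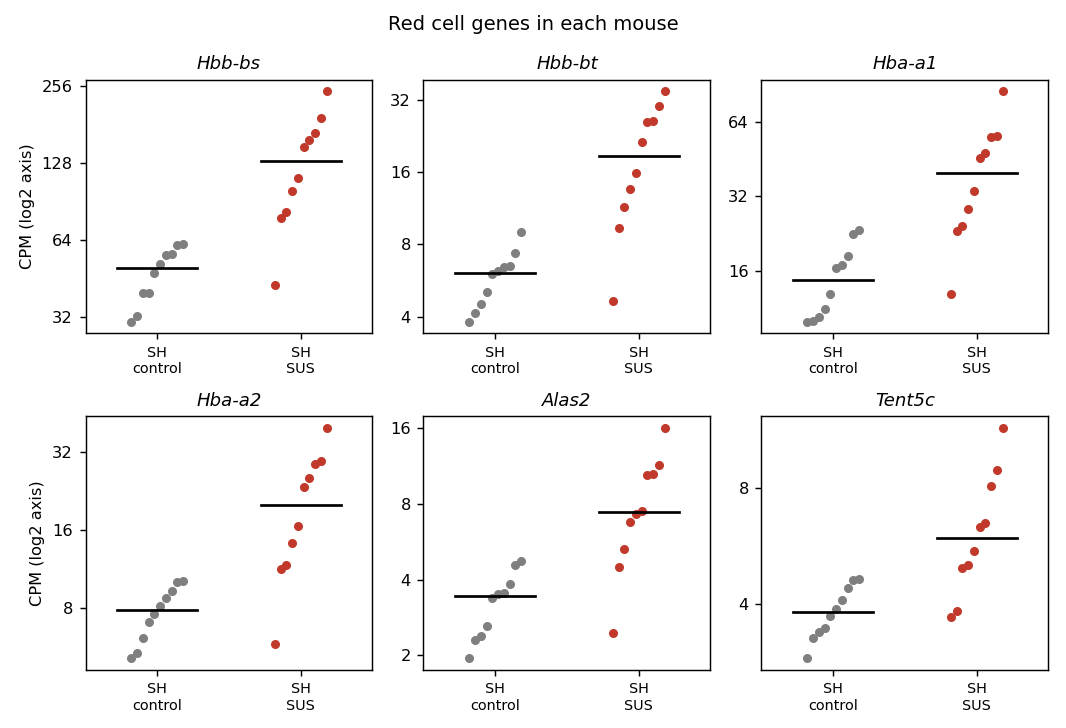
Level of 6 red cell genes in each SH control (gray) and SH SUS (red) mouse, in CPM on a log2 axis, with mice sorted by level and the median as a bar. SUS mouse 7 is the lowest red point for Hbb-bs, and 9 of 10 SUS mice lie above all controls for Hbb-bs, Hbb-bt and Hba-a2.

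Beyond the called genes, further red cell genes pointed the same way without passing the threshold. Slc4a1, the anion exchanger of the red cell membrane, had a median of 0.749 CPM in SUS mice (0.0512 to 2.19) and 0.159 CPM in control mice (0 to 0.400), with a log2 fold change of 2.50 (SE 0.56, adjusted p = 0.0967 in edgeR). It was above every control in 7 SUS mice. The share of all genes reaching such a count was determined only for 8 or more SUS mice. Smaller counts, here and below, describe single genes. Tent5c, a poly(A) polymerase abundant in maturing red cells, had a median of 5.92 CPM in SUS mice (3.70 to 11.5) and 3.81 CPM in control mice (2.89 to 4.65), with 8 SUS mice above all controls and a log2 fold change of 0.75 (SE 0.17, adjusted p = 0.125 in edgeR). DESeq2 called Tent5c and Slc4a1 as well.

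Of the 15 red cell genes listed, 13 were tested, 5 were called and all 5 rose, and 10 had an unadjusted p below 0.05, all of them higher. Of all genes tested, 0.0328% were called and 1.35% were higher at an unadjusted p below 0.05. The median log2 fold change of the list was 1.33, against -0.0003 over all genes. The 3 tested members without an unadjusted p below 0.05 were Bpgm at 0.02 (SE 0.04), Fech at -0.03 (SE 0.04) and Ermap at 0.21 (SE 0.23). Bpgm and Fech, which encodes the last enzyme of heme synthesis, had medians of 53.9 and 59.6 CPM in SUS mice, and cells outside the blood use them as well. Epb42 and Rhag had too few counts to be tested.

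The size of the rise varied between SUS mice. Among the 13 red cell genes, 10 exceeded all control mice in SUS mice 1, 2, 9 and 10, while 2 did so in SUS mouse 7, 5 in mouse 5 and 6 in mouse 8. Without SUS mouse 2, which had the highest Hbb-bs level, only Hbb-bs and Hbb-bt stayed below an adjusted p of 0.05, and Alas2 and Hba-a1 were at 0.0598 and Hba-a2 at 0.0565 in edgeR. Without SUS mouse 7, 8 genes were called, with Slc4a1 and Tent5c added. With the red cell score of each mouse as a covariate, no gene was called and the log2 fold change of Hbb-bs was 0.34. This score is the mean standardized level of the red cell list. It holds Hbb-bs and the other called red cell genes, so the adjustment takes out their own level and cannot test their difference.

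Hbb-bs and Alas2 moved together from mouse to mouse within each group. On log2 CPM, Pearson's r was 0.98 and Spearman's rho 0.95 over the 10 SUS mice, with adjusted p of 4e-05 and 0.00012 in two-sided permutation tests, and 0.93 and 0.90 over the 10 control mice, with adjusted p of 0.00032 and 0.00074 in the same permutation tests, adjusted over these 2 groups. The 4e-05 is the smallest adjusted p that 100000 permutations could give here, so it marks the limit of their resolution. Leaving out the 2 mice farthest from the median Hbb-bs level of their group, r was 0.94 in SUS and 0.87 in control mice. Control mice with more Hbb-bs thus also had more Alas2, over a narrower range.

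**Figure D2:**
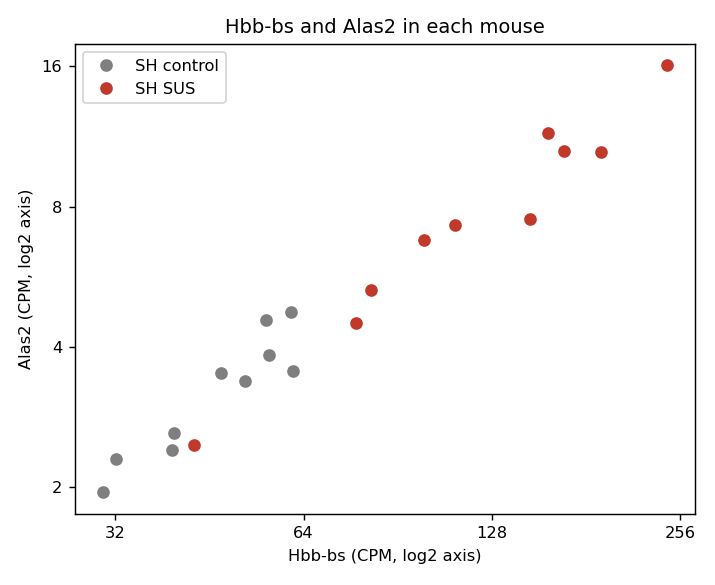
Level of Alas2 against Hbb-bs in each SH control (gray) and SH SUS (red) mouse, both in CPM on log2 axes. Points of both groups lie along a rising line, and the SUS mice extend it to 244 CPM of Hbb-bs and 16.1 CPM of Alas2.

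Other blood cells gave few counts. Of 14 neutrophil genes 3 were tested, and their summed level was 0.669 to 4.77 CPM in SUS mice (median 2.96) and 0.758 to 3.84 CPM in control mice (median 1.19). Lcn2, an iron-binding protein made by neutrophils and reactive astrocytes, was at 0 CPM in the lowest mouse of both groups and had medians of 1.35 CPM in SUS and 0.0452 CPM in control mice, with a log2 fold change of 2.43 (SE 1.01, unadjusted p = 0.0202 in edgeR). S100a9 was at 1.60 (SE 0.97, unadjusted p = 0.105). Only 2 of 14 lymphocyte genes were tested, and neither had an unadjusted p below 0.05. Whether residual blood in the vessels differed between the groups was not tested.

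Further protein-coding genes with small p-values did not pass the adjusted threshold and are given as values. Pcdha6, a protocadherin of neuronal contacts, had medians of 5.04 CPM in SUS and 3.94 CPM in control mice, and 7 SUS mice were above all controls. Its log2 fold change was 0.33 (SE 0.08, adjusted p = 0.494 in edgeR), and since genes of its cluster share exons, the counts of single members are uncertain. Ube2l6, an enzyme that attaches the interferon-induced modifier ISG15, was at 3.74 to 6.57 CPM in SUS and 3.09 to 4.60 CPM in control mice, with a log2 fold change of 0.39 (SE 0.10, adjusted p = 0.606). In these genes the groups overlapped in part. Log2 fold changes were 0.49 for Rgl3, 1.57 for Apol11b and 0.12 for Rwdd4a. Acer2, an alkaline ceramidase of the Golgi that was chosen after its values were seen, was above all controls in 8 SUS mice, a pattern reached by 7 genes of the genome, which is 0.0383% of genes. Its log2 fold change was 0.52 (SE 0.22, unadjusted p = 0.0211 in edgeR).

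On the lower side, Cenpn, a centromere protein that helps to build the kinetochore, came first. It stood at 0.256, 0.548 and 0.927 CPM in the lowest, median and highest SUS mouse and at 0.600, 0.793 and 1.20 CPM in control mice, so 7 SUS mice were below every control. The log2 fold change was -0.70 (SE 0.18, adjusted p = 0.377 in edgeR). Hmmr, a spindle-associated hyaluronan receptor, was lower by a similar amount, at -0.81 (SE 0.23, adjusted p = 0.939). Mtmr14, a lipid phosphatase, and Neu3, a sialidase of membrane lipids, differed little in size, at -0.15 and -0.24, with 7 and 6 SUS mice below all controls. Further values were -0.20 for Plekhf2, -0.37 for Pcdhb4, -0.77 for Gm10130 and -0.64 for Slfn9. Lrrc23 and Baiap2l2, chosen after their values were seen, were the 2 genes, 0.0109% of all, that lay below every control in at least 8 SUS mice, with log2 fold changes of -0.95 (SE 0.30) and -0.46 (SE 0.18). Both had low levels. Lrrc23 had medians of 0.437 CPM in SUS and 0.698 CPM in control mice, and its highest control mouse was at 2.48 CPM. Baiap2l2 had medians of 0.836 CPM in SUS and 1.10 CPM in control mice.

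The criterion of the study, an unadjusted p below 0.05 with a fold change above 1.3 in limma, was met by 170 genes, 0.93% of those tested, of which 116 were higher and 54 lower in SUS mice. Most had few counts. A mean below 1 CPM was found for 78.4% of the higher and 83.3% of the lower genes, compared with 16.7% of all genes. The higher set held 58 protein-coding genes, among them 10 red cell genes, and the lower set held 31 protein-coding genes and no red cell gene. When only genes above 1 CPM in 7 or more mice were tested, 65 genes met it. At this depth the median standard error of a log2 fold change was 0.22 for genes under 1 CPM and 0.05 for genes of 10 to 100 CPM.

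The list of progenitor and proliferation genes was examined next. Of 17 tested members 3 were lower at an unadjusted p below 0.05, beside 1.43% of all genes tested. None was higher at that level or called, and 14 of 17 had the lower mean in SUS mice. The median log2 fold change was -0.11, against -0.0003 over all genes, and it lay between -0.15 and -0.07 when each mouse was left out. When both strands were counted, the median was -0.06. Top2a, the topoisomerase of dividing cells, was at 1.87 to 3.41 CPM in SUS mice (median 2.70) and at 2.73 to 4.22 CPM in control mice (median 3.62). In 5 SUS mice it was below every control, and the log2 fold change was -0.42 (SE 0.15, unadjusted p = 0.00889 in edgeR). Mcm2, a subunit of the replicative helicase, was at -0.17 (SE 0.07) with 6 SUS mice below all controls. For these 2 genes the share of all genes with such counts was not determined. Mki67, the proliferation antigen, was at -0.35 (SE 0.14) on the strand of the gene, but at 0.03 when both strands were counted. Eomes, a transcription factor of intermediate progenitors, was at -0.57 (SE 0.22, unadjusted p = 0.012 in edgeR). Of 16 immature granule neuron genes only Eomes had an unadjusted p below 0.05, and Dcx, the microtubule protein of migrating young neurons, was at -0.07 (SE 0.07).

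The start of Cenpn is shown because it had the smallest p among lower genes. The window is chr8:116921490-116921739 on the plus strand of GRCm38.p6, the 250 bases before the start given by RefSeq, and capitals mark TTTGAA, a cell cycle homology element, and CCAAT, on either strand.
Cenpn: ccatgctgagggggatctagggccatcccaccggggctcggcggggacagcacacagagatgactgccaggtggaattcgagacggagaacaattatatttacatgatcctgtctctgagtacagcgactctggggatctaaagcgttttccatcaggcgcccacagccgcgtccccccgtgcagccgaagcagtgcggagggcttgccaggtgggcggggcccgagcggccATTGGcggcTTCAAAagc
It held 1 match of each. Among the 27025 promoter windows, 16.3% held TTTGAA and 34.5% held CCAAT.

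Genes of the circadian clock formed another small group. The brains were taken around midday in all groups according to the methods, without a time for each mouse. Of 20 clock genes tested, none was called, and the list median was 0.02. At an unadjusted p below 0.05, 4 were higher and 2 lower, beside 1.35% and 1.43% of all genes tested. Arntl, which encodes the activator BMAL1, was at 33.2, 38.4 and 46.8 CPM in the lowest, median and highest SUS mouse and at 34.8, 45.2 and 56.3 CPM in control mice. The groups overlapped through SUS mouse 5, at 46.8 CPM, and control mouse 3, at 34.8 CPM. The other SUS mice were at 33.2 to 39.5 CPM and the other control mice at 39.8 to 56.3 CPM. These mice were set apart after their values were seen, and the share of all genes parted in this way was not determined. With every mouse kept, the log2 fold change of Arntl was -0.26 (SE 0.07, adjusted p = 0.429 in edgeR). Nfil3, a repressor, was lower as well, at -0.18 (SE 0.09). The 4 higher genes act against BMAL1 or in output, namely Ciart at 0.31 (SE 0.13), Dbp at 0.23 (SE 0.11), Per3 at 0.14 (SE 0.07) and Nr1d2 at 0.10 (SE 0.04). Other core members differed little, with Clock at 0.01, Per1 at 0.01, Cry1 at 0.04 and Nr1d1 at 0.05. The 250 bases before the RefSeq start of Arntl held neither AGGTCA, a half-site of REV-ERB and ROR receptors found in 13.8% of windows, nor CACGTG, the E-box found in 6.05%.

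**Figure D3:**
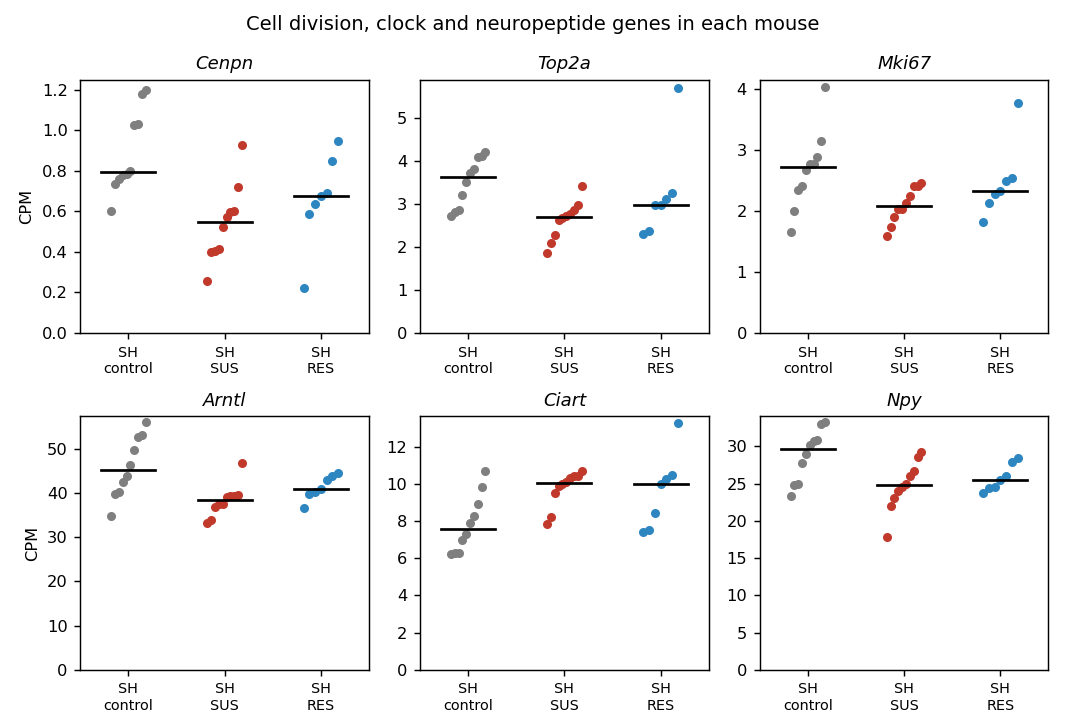
Level of Cenpn, Top2a, Mki67, Arntl, Ciart and Npy in each SH control (gray), SH SUS (red) and SH RES (blue) mouse, in CPM from 0, with the median as a bar. SUS medians are below control medians for 5 of these genes and above for Ciart, and the groups overlap in every panel.

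The interneuron list had its smallest p-values in 2 neuropeptide genes. Npy, which encodes neuropeptide Y, was at 17.9 to 29.2 CPM in SUS mice (median 24.8) and 23.4 to 33.3 CPM in control mice (median 29.6), with 3 SUS mice below all controls. The log2 fold change was -0.22 (SE 0.08, unadjusted p = 0.00483 in edgeR). Cort, the gene of cortistatin, had medians of 2.63 and 3.38 CPM and a log2 fold change of -0.33 (SE 0.13, unadjusted p = 0.0133), with 5 SUS mice below all controls. The remaining 18 interneuron genes had no unadjusted p below 0.05. Of all genes tested, 1.43% were lower at that level. Sst, Pvalb and Vip, which mark the main classes, were at -0.01, 0.01 and 0.03, and Gad1, which makes GABA, was at -0.02. None of these genes was called.

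Markers of principal neurons and glia showed small differences. None of 16 mature granule cell genes had an unadjusted p below 0.05, with Prox1, the identity factor of these cells, at -0.03 (SE 0.11) and Calb1 at -0.13 (SE 0.10). The same held for 6 mossy cell, 10 CA1, 14 CA3 and CA2, 16 oligodendrocyte and 16 microglia genes. Medians of the lists for granule cells, mossy cells, CA1, microglia and astrocytes lay between -0.03 and 0.01. Those for CA3 and CA2, oligodendrocytes and oligodendrocyte precursors were 0.06, -0.04 and -0.05. Of vascular genes, Vwf, a clotting factor made by endothelial cells, ranged from 11 to 35.7 CPM in SUS mice and from 11.1 to 27.4 CPM in control mice, with a log2 fold change of 0.61 (SE 0.23, unadjusted p = 0.00894 in edgeR), while Cldn5, a tight junction protein of the same cells, was at -0.05 (SE 0.08). The endothelial list had a median of 0.04 with 1 of 18 genes at an unadjusted p below 0.05, beside 2.78% of all genes tested. The pericyte and smooth muscle list had a median of 0.10 with Cnn1 and Abcc9 at 0.60 and 0.19. All 13 choroid plexus genes had lower means in SUS mice, with a median of -0.60, but without control mouse 3 this median was 0.86. When single mice were left out, up to 12 of these genes had the higher mean in SUS mice. SUS mouse 3 had the highest summed level of its group, at 699 CPM against a median of 116 CPM.

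**Figure D4:**
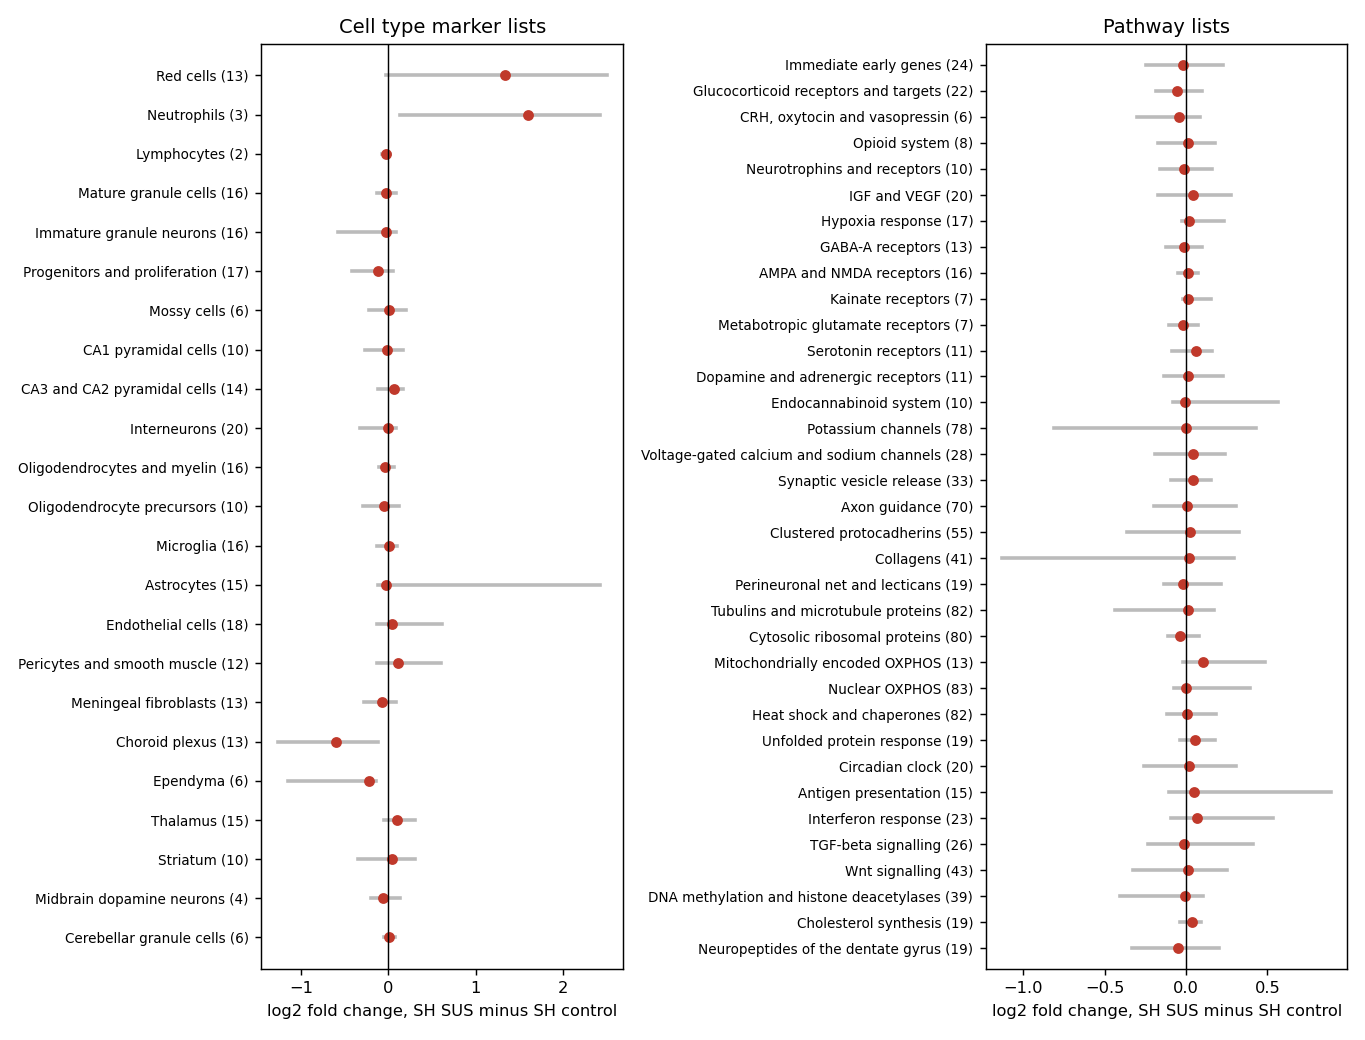
Median log2 fold change (red point) and range from the lowest to the highest member (gray line) for 23 cell type marker lists and 35 pathway lists, SH SUS minus SH control, with the number of genes tested in parentheses. Red cells have a median of 1.33, and all 35 pathway medians lie between -0.06 and 0.11.

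Pathways named in work on stress were then described. None of 35 pathway lists held a called gene, and 20 of them held no gene at an unadjusted p below 0.05. Over all genes tested, 2.78% were at that level. Among the 22 genes of glucocorticoid receptors and their targets, 17 had the lower mean in SUS mice and the median was -0.06. The receptors Nr3c1 and Nr3c2 were at -0.07 (SE 0.04) and -0.06 (SE 0.04), and the target Fkbp5 was at 38.2 to 48.3 CPM in SUS and 35.3 to 50.6 CPM in control mice, a log2 fold change of 0.04 (SE 0.07). Txnip had the smallest p of the list, at -0.15 (SE 0.08, unadjusted p = 0.0652 in edgeR).

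Immediate early genes, which are switched on by neuronal firing, lay on both sides of 0, with 11 of 24 higher and a median of -0.02. Fos was at 2.10 to 4.73 CPM in SUS and 1.94 to 6.98 CPM in control mice, with a log2 fold change of -0.25 (SE 0.19). Nr4a3 had the smallest p, at 0.17 (SE 0.10). Among growth factors Bdnf was at -0.07 (SE 0.08), and Vegfa, which drives vessel growth and answers to low oxygen, was at 32.2 to 49.0 CPM in SUS mice (median 40.1) and 28.1 to 44.7 CPM in control mice (median 34.4), a log2 fold change of 0.23 (SE 0.09, unadjusted p = 0.0154 in edgeR). It was the only one of 17 hypoxia genes and of 20 IGF and VEGF genes at that level.

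Of immune pathways, antigen presentation had 2 of 15 genes higher at an unadjusted p below 0.05 and none lower. Of all genes tested, 1.35% were higher at that level. Cd74, the chaperone of class II molecules, had medians of 1.13 CPM in SUS and 0.733 CPM in control mice and a log2 fold change of 0.89 (SE 0.34, unadjusted p = 0.0123 in edgeR), and the class II chain H2-Aa was at 0.86 (SE 0.37). In the interferon list Rsad2 and Oas1a were at 0.47 (SE 0.19) and 0.54 (SE 0.25), 2 of 23 genes, and the median was 0.07. All of these genes had low levels, and at most 2 SUS mice exceeded all controls for Cd74 or H2-Aa.

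Receptor and synapse lists showed few differences. No member had an unadjusted p below 0.05 among 13 GABA-A, 16 AMPA and NMDA, 7 kainate, 7 metabotropic glutamate, 11 serotonin, 11 dopamine and adrenergic receptor genes, 10 endocannabinoid, 8 opioid, 33 vesicle release and 70 axon guidance genes. Their medians ran from -0.02 to 0.06. In the opioid list, Penk, the enkephalin precursor, was at 0.16 (SE 0.10) and Pdyn at -0.17 (SE 0.11). Of 78 potassium channel genes 3 were at that level, beside 2.78% of all genes tested. Kcng4, a silent subunit that alters delayed rectifiers, was at -0.41 (SE 0.13, unadjusted p = 0.00255 in edgeR). Of 55 clustered protocadherins, which give neurons distinct surface identities, 2 were higher and 3 lower at that level, beside 1.35% and 1.43% of all genes tested.

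Some pathways leaned to 1 side with no single gene at an unadjusted p below 0.05. Of 80 cytosolic ribosomal protein genes, 77 had the lower mean in SUS mice, with a median of -0.04 and a range from -0.11 to 0.08. In contrast, 12 of 13 mitochondrially encoded respiratory chain genes had the higher mean, with a median of 0.11, and the mitochondrial share of counts was 4.43% to 7.71% in SUS and 3.83% to 6.62% in control mice. Vesicle release genes were higher in 28 of 33, genes of the unfolded protein response in 17 of 19 and of cholesterol synthesis in 17 of 19, with medians of 0.04, 0.06 and 0.04. Genes of a pathway share the libraries they were read in, so these counts do not come from independent values.

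The remaining lists with genes at an unadjusted p below 0.05 held 1 or 2 of them. Uhrf1, which guides DNA methylation to newly copied DNA, was at 0.691 to 1.57 CPM in SUS mice (median 1.29) and 1.15 to 2.22 CPM in control mice (median 1.55), with 4 SUS mice below all controls and a log2 fold change of -0.41 (SE 0.16, unadjusted p = 0.0127 in edgeR). Kif11, the spindle motor, was at -0.19 (SE 0.10), while Kif17, a motor that carries receptor cargo in dendrites, was at 0.16 (SE 0.07). Cox4i2, a subunit of cytochrome oxidase, had medians of 0.741 CPM in SUS and 0.618 CPM in control mice, and 7 SUS mice were above all controls, with a log2 fold change of 0.39 (SE 0.18, unadjusted p = 0.0306). Rspo1, an amplifier of Wnt signals, was at -0.33 (SE 0.13), and the TGF-beta genes Acvr1c, a receptor, and Id2, a target, were at 0.16 and -0.12. Smaller values were found for Hspa12a at 0.10 and Dnajc14 at -0.06 among chaperones, Col19a1 at 0.11 among collagens, and Gpr17, a receptor of oligodendrocyte precursors, at -0.17. No gene of these lists was called.

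The study's own co-expression modules were built partly on these mice and are not independent evidence. Of 297 tested genes of the cyan module, 238 had the higher mean in SUS mice, beside 49.8% of all genes tested. The median was 0.04 and 2 genes, both alpha-globin genes, were called. In the yellow module 228 of 449 were higher, with a median of 0.001. In SH RES minus SH control, which shares the control mice, 54 of the 297 cyan genes were higher, with a median of -0.04. In EE SUS minus EE control 224 cyan genes were higher, with a median of 0.05. Of the genes the study names, Wdr7, Camsap2 and Dnajc6 were at 0.02, 0.03 and 0.02 in SH SUS minus SH control. Alox12b was at 0.32 (SE 0.17, unadjusted p = 0.0572 in edgeR), Adamts14 at 0.22, Krt73 at 0.27 and Spink8 at 0.14. None of them passed the adjusted threshold. The study gives Wdr7, Camsap2 and Dnajc6 as the most connected cyan genes. It reports Alox12b and Adamts14 from SUS against RES mice in SH and from corticosterone treatment, and Krt73 and Spink8 from corticosterone treatment. Its criterion was unadjusted and its comparisons were others than SUS against unstressed control.

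The values were set beside those of 2 other comparisons. SH RES minus SH control uses the same control mice, so its values are not independent of those above. Log2 fold changes in RES mice were 1.08 (SE 0.25) for Hbb-bs, 1.36 for Hbb-bt, 0.93 for Hba-a1, 0.97 for Hba-a2 and 1.02 for Alas2, with no gene called in edgeR or DESeq2 and 641 genes, 3.51%, at an unadjusted p below 0.05. Between SUS and RES mice of SH no gene was called by either test, and 893 genes, 4.88%, were at an unadjusted p below 0.05. Arntl and Cenpn were at -0.15 and -0.41 in RES mice, and Eomes was at 0.15. Of the 17 progenitor and proliferation genes, 4 had the higher mean in RES than in control mice, with a median of -0.08. A difference between SUS and RES mice was therefore not shown for any gene of these groups.

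SUS minus control mice raised in EE share no animal with the SH groups. Log2 fold changes there were 1.06 (SE 0.25) for Hbb-bs, 1.12 for Hbb-bt, 1.09 for Hba-a1, 1.05 for Hba-a2, 1.24 for Alas2 and 0.65 for Tent5c. No gene was called in EE by edgeR or DESeq2, with 1444 genes, 7.9%, at an unadjusted p below 0.05. Of the 13 red cell genes, 12 had the same sign in both housings, and 8 of these also had an unadjusted p below 0.05 in EE. Of the 6 genes called in SH, 5 had the same sign in EE. Genes of neighboring tissue moved with the EE comparison, where all 15 thalamic genes were higher at an unadjusted p below 0.05, with a median log2 fold change of 1.20. Their summed level was 464 to 1288 CPM in EE SUS mice (median 769.9) and 379 to 637 CPM in EE control mice (median 449), and the part of this tissue in the EE values was not tested. The difference of the SUS minus control effect between housings reached an adjusted p below 0.05 in no gene in either test, with 720 genes, 3.94%, at an unadjusted p below 0.05.

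Outside the red cell list, 498 genes had an unadjusted p below 0.05 in SH, of which 308, or 61.8%, had the same sign in EE, compared with 54.1% of all genes. Across all 18283 genes Pearson's r between the housings' log2 fold changes was 0.15 and Spearman's rho 0.10, over genes that are not independent replicates. Ube2l6 was at 0.42 (SE 0.11), Cd74 at 1.33 and Cort at -0.47 in EE. Cenpn, Arntl, Pcdha6 and Eomes were at 0.11, -0.03, 0.01 and 0.20 there. Of the 17 progenitor and proliferation genes, 5 had the higher mean in EE SUS mice, with a median of -0.05 and 0 at an unadjusted p below 0.05. The mitochondrially encoded genes were higher in 1 of 13 and the ribosomal protein genes in 37 of 80 in EE.

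**Figure D5:**
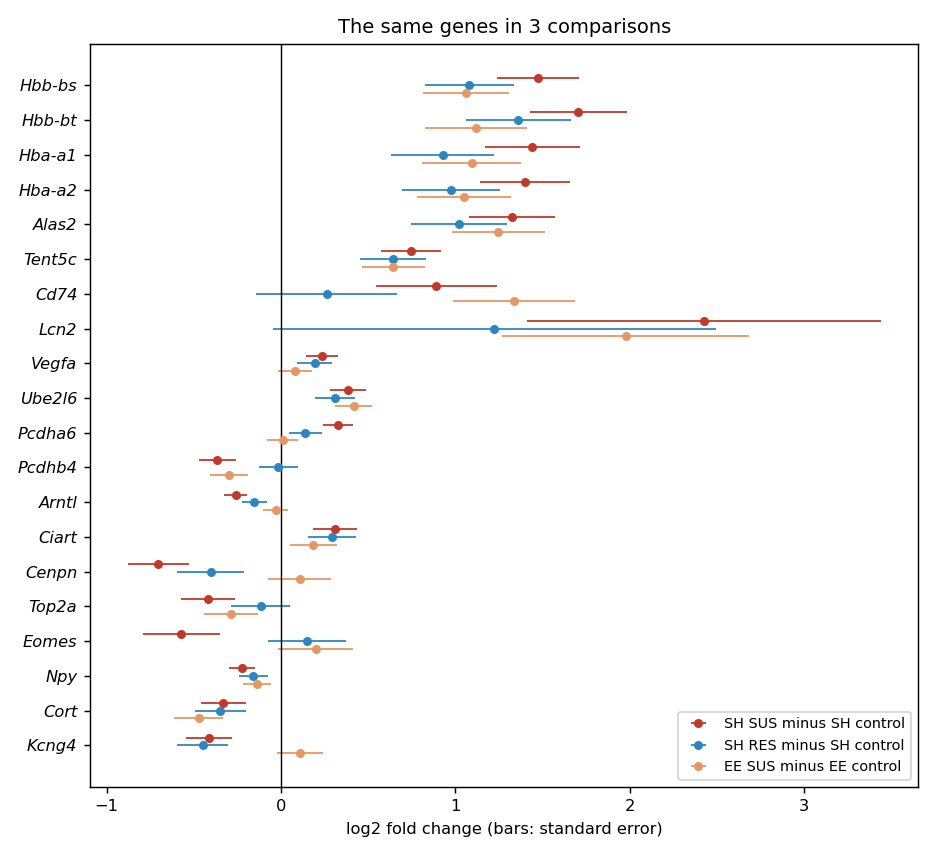
Log2 fold change with its standard error for 20 genes in SH SUS minus SH control (red), SH RES minus SH control (blue) and EE SUS minus EE control (orange). Hemoglobin genes, Alas2 and Tent5c lie right of 0 in all 3, from 0.64 to 1.70, while Cenpn, at -0.70 in SH SUS mice, is at 0.11 in EE.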

How the data were processed

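RNA of the ventral dentate gyrus was sequenced by the authors from single mice. The deposited values are raw counts per gene, not normalized, from reads that the authors aligned with STAR to GRCm38 (mm10). STAR's own gene count format is seen in each table, although featureCounts is named in the methods, and the submitters' processing notes also name Picard. The reverse-strand column was used. Rows that name no gene were left out of library sizes. Names and coordinates were found for 44671 of 45318 Ensembl identifiers.

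Mice were grouped by their labels. The methods give 1 to 7 replicates per defeat group, whereas the labels hold 7 to 10 mice per group. All labelled mice were used, so they may not be the same set as in the study's own lists and modules. Counts of all 54 mice were fitted in 1 model of 6 groups, with the 2 runs of 1 EE control mouse summed, after TMM normalization and filterByExpr in edgeR 4.0.16 (R 4.3.3). The quasi-likelihood test with Benjamini-Hochberg adjustment at 0.05 was the main test, and limma 3.58.1 (voom) and DESeq2 1.42.0 were alternatives. Fold changes are on the log2 scale with their standard errors. CPM values are per 1000000 counts after TMM scaling, and log2 CPM used a prior count of 2. Lists, plots and correlations, the latter with 100000 permutations, used Python 3.11.15, pandas 2.3.3, NumPy 2.4.6, SciPy 1.17.1 and matplotlib 3.10.9. The scripts were tested on simulated data. Promoter sequences came from RefSeq.

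The groups, members and the 60 gene lists (23 of cell types, 35 of pathways, 2 modules of the study) were chosen with earlier results of these data known. Named genes were the 10 protein-coding genes per direction with the smallest p outside the hemoglobin chains, the called members of each list, otherwise its member with the smallest p, and 8 genes the study names. Other list members given by value, and genes stated as such, were chosen after their values were seen. Several genes that enter these counts are not reported here.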

Additional observations from a re-analysis of the deposited data

Results flagged for a closer look

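Each of 88 combinations of a gene or marker list and a group was examined for a mouse whose distance to the nearest other mouse exceeded Dixon's 95% critical share of the range of its group of 10, which chance alone passes in about 1 of 20. This was met 6 times. Arntl was at 46.8 CPM in SUS mouse 5, against 33.2 to 39.5 CPM in the others, so this mouse alone of the SUS group lay above the control median of 45.2 CPM.

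Control mouse 3 stood apart in 4 lists. Its summed level was 1619 CPM for choroid plexus genes (others 95.0 to 172), 23.6 CPM for ependymal genes (others 6.54 to 10.6), 786 CPM for CA1 pyramidal cell genes (others 357 to 528) and 3.84 CPM for neutrophil genes (others 0.758 to 1.47). The sum of 4 midbrain dopamine neuron genes was 12.1 CPM in control mouse 6 and 7.47 to 8.90 CPM in the other controls.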

How the results depend on the processing

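The 6 genes at an adjusted p below 0.05 became 0 with the red cell score as a covariate, 1 with limma, and 2 to 8 when each of the 20 mice was left out in turn, the lowest without SUS mouse 2. The red cell score is built from a list that holds 5 of these 6 genes, so it takes out their own level. The 170 genes at the criterion of the study became 787 without a low-count filter and 65 with the stricter filter. With choroid plexus and thalamus scores as covariates, 6 genes were called and 181 met that criterion. The comparisons of SUS with RES mice, of RES with control mice, of EE mice and of the housings gave 0 calls under each alternative run. No pairing by replicate number was assumed. Same-numbered pairs had correlations from -0.12 to 0.28, over 0.1 in 4 of 10, and 3 SUS mice correlated best with their own number. These values cannot settle whether the numbers pair the mice. With the replicate number as a block 5 genes were called and 174 met the criterion of the study. Over 103 named genes, 3132 of 3163 values kept their direction and their side of the threshold, 13 fell behind it, 6 passed it and 12, of 11 genes, changed sign.

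Log2 fold changes that changed sign were as follows. With the red cell score as a covariate, sign changed for Crym (-0.059), Nr4a3 (-0.022), Vamp1 (-0.028), Adamts9 (-0.012), Rsad2 (-0.12), Wdr7 (-0.0019), Camsap2 (-0.014), Dnajc6 (-0.021) and Spink8 (-0.44). Leaving out mice in turn moved Sostdc1 between -0.58 and 0.034 (highest without control mouse 3) and Spink8 between -0.041 and 0.49, and unstranded counts put Mki67 at 0.029. The causes were not tested. Depth limits genes under 1 CPM most.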
